A study of Rattus norvegicus with 16 samples.

Results

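Sutured rat corneas that had received goat IgG drops, the sham treatment of the study, were compared with naïve corneas that carried no suture. The comparison used 8 of the 16 arrays of the series, 4 IgG corneas and 4 naïve corneas, chosen by their labels, and it covered all 14217 genes that the arrays read with a probe set of a single gene symbol. The animals were male Wistar rats aged 12 to 16 weeks. In the IgG group 2 sutures had been placed in the corneal stroma 1.5 mm from the temporal limbus, and 4 drops per day had been given for 2 days. The sample labels give the antibody at 20 mg/ml and call it anti-IgG, whereas the protocol text names goat IgG and the methods of the study give 20 µg/ml. The harvested tissue is a piece of whole cornea, which the methods place between the sutures and the temporal limbus without the limbal rim and the labels describe as cornea without the sclera. Naïve corneas had neither sutures nor sham drops, so a response to the suture and one to the drops cannot be told apart. The remaining 8 arrays held sutured corneas given anti-*Vegf* or dexamethasone.

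The cornea is a clear tissue without vessels, built of a stratified epithelium on the surface, a collagen stroma kept by keratocytes, and a single layer of endothelial cells that pumps fluid out of the stroma. A suture wounds the epithelium and the stroma and stays in place as a foreign body. Wounded epithelium and keratocytes release interleukin-1 and chemokines, neutrophils and monocytes enter from the limbal vessels, matrix is cut and laid down anew, and new vessels later grow in from the limbus.

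A gene was called differentially expressed (DEG) at an adjusted p under 0.05 from limma and a difference of at least 1.5-fold. All values below are log2 signals of the deposited arrays, where 1 unit is a doubling, and differences are IgG minus naïve. Of 14217 genes, 1612 were DEGs, a background of 11.3% against which the gene groups below can be read. Higher in IgG corneas were 899 genes (6.32%) and lower were 713 (5.02%). The median difference over all genes was −0.01. Among the 137 genes (0.964%) that differed at least 4-fold, 125 were higher (0.879%) and 12 were lower (0.0844%), so large changes were mostly rises. Genes that rose had a median naïve signal of 6.96 and genes that fell one of 8.39, against 7.68 over all genes. Centring each array on reference genes instead of using the deposited scale moved the median over all genes to −0.24 and the share of DEGs that rose from 55.8% to 23.9%, with 2433 DEGs in all, so the balance of rises and falls depended on the scale.

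**Figure D1:**
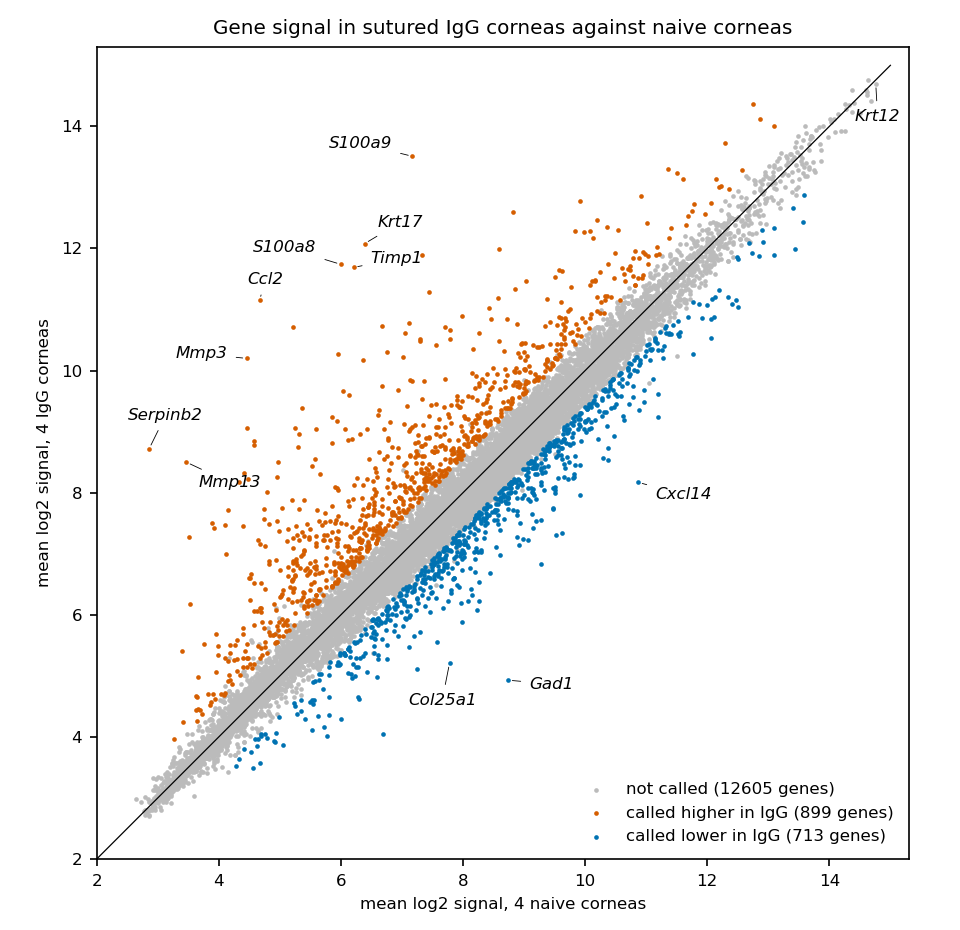
Mean log2 signal of each of 14217 genes in 4 IgG corneas (vertical axis) against 4 naïve corneas (horizontal axis), with the line of equal signal. The 899 genes called higher and the 713 called lower are coloured, and the largest differences lie above the line, from *Ccl2* to *Mmp13*, while *Krt12* lies on it.

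The corneas of each group resembled one another. Correlations across genes were 0.9879 to 0.9958 between naïve arrays, 0.9917 to 0.9938 between IgG arrays and 0.9638 to 0.9720 between the groups, as a description over genes that are not independent. Averaged over the DEGs, the IgG corneas 17, 19, 22 and 23 showed 0.99, 0.975, 0.999 and 1.04 of the group difference, and naïve corneas 1 to 4 showed −0.0461, −0.061, 0.0302 and 0.0768. Over these DEGs, which were called from the same arrays, no IgG cornea had a much smaller mean share than the others. The shares describe the arrays relative to one another and are not a test. Single gene lists differed. The mean of the macrophage markers was lowest in IgG cornea 17, at 7.11 against 7.49 to 7.82 in the others. That of the neutrophil markers was not, at 8.26 against 8.10 to 8.46, but its members were split. In IgG cornea 17 *S100a9* (14.05, others 13.19 to 13.46) and *S100a8* (12.22, others 11.27 to 11.88) were highest. *Cxcr2* (6.59, others 6.73 to 7.23) and *Csf3r* were lowest there. Control probe sets differed between the groups too. The poly-A control RNAs, which are added to each sample before labelling, read 4.93, 5.16, 5.13 and 5.16 in naïve corneas and 7.08, 6.80, 7.44 and 6.99 in IgG corneas (difference 1.98, exact permutation test, two-sided p = 0.029, the smallest that 4 against 4 arrays allow). In the dexamethasone group they read 5.03 to 5.40 and in the anti-*Vegf* group 6.75 to 7.02. The 5′ minus 3′ signal of *Actb*, which falls when RNA is degraded, was −1.69, −1.75, −0.87 and −0.82 in naïve corneas 1 to 4 and −0.79 to −0.59 in IgG corneas (p = 0.029 in the same exact test). Naïve corneas 1 and 2 thus stood apart from naïve corneas 3 and 4. With naïve 3 and 4 as the only naïve arrays, an alternative chosen after seeing the data, 1537 genes were called, of which 1212 were among the 1612 above. The part of these technical differences in the results was not tested.

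The largest rises named a chemokine, calcium-binding proteins of myeloid cells and wounded epithelium, protease inhibitors, matrix proteases and a wound keratin. Throughout, values are listed for naïve corneas 1 to 4 and then for IgG corneas 17, 19, 22 and 23. *Ccl2*, the chemokine that draws monocytes, read 5.10, 4.38, 4.77 and 4.45 in naïve and 10.02, 11.37, 11.37 and 11.84 in IgG corneas. Its rise of 6.48 (SE 0.30, 89-fold, adjusted p = 1.97e-09) was the largest of all genes, and no IgG cornea came near a naïve one. *S100a9*, a subunit of the antimicrobial protein calprotectin, read 7.04, 7.07, 7.32 and 7.27 against 14.05, 13.32, 13.19 and 13.46. The rise was 6.33 (SE 0.39, 80.5-fold, adjusted p = 3.93e-08), and the partner subunit *S100a8* rose by 5.74 (SE 0.42). *Serpinb2*, an inhibitor of plasminogen activators, read 2.93, 2.88, 2.74 and 2.89 against 8.12, 9.12, 8.80 and 8.83. That is a rise of 5.86 (SE 0.24, 58-fold, adjusted p = 5.96e-10) from naïve signals at the bottom of the scale. The files used here hold no detection calls, so whether such a gene was expressed at all in the naïve cornea is not known.

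*Mmp3*, the matrix protease stromelysin-1, read 4.09, 4.06, 5.66 and 4.01 in naïve and 9.68, 10.42, 10.44 and 10.26 in IgG corneas (rise 5.74, SE 0.35, 53.6-fold). Naïve cornea 3 lay above the other naïve corneas, yet far below any IgG cornea. *Krt17*, a keratin of wounded epithelium, read 6.10, 6.19, 6.82 and 6.45 against 12.51, 12.04, 12.34 and 11.41 (rise 5.69, SE 0.40, 51.5-fold). *Timp1*, the secreted inhibitor of matrix proteases, rose by 5.48 (SE 0.32, 44.6-fold) and *Mmp13*, a collagenase, by 5.03 (SE 0.29, 32.7-fold). *Chi3l1*, a chitinase-like protein of inflamed tissue, rose by 5.49 (SE 0.26, 44.9-fold). The last of the 10 was *Lrat*, the enzyme that stores retinol as an ester, with naïve signals of 4.32, 4.72, 4.70 and 4.11 and IgG signals of 8.95, 9.13, 9.04 and 9.12. The 10 genes do not belong to 1 pathway. All were read in every IgG cornea far above every naïve one, but arrays without overlap were a condition of choosing them. Of all genes, 31.3% had arrays without overlap.

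**Figure D2:**
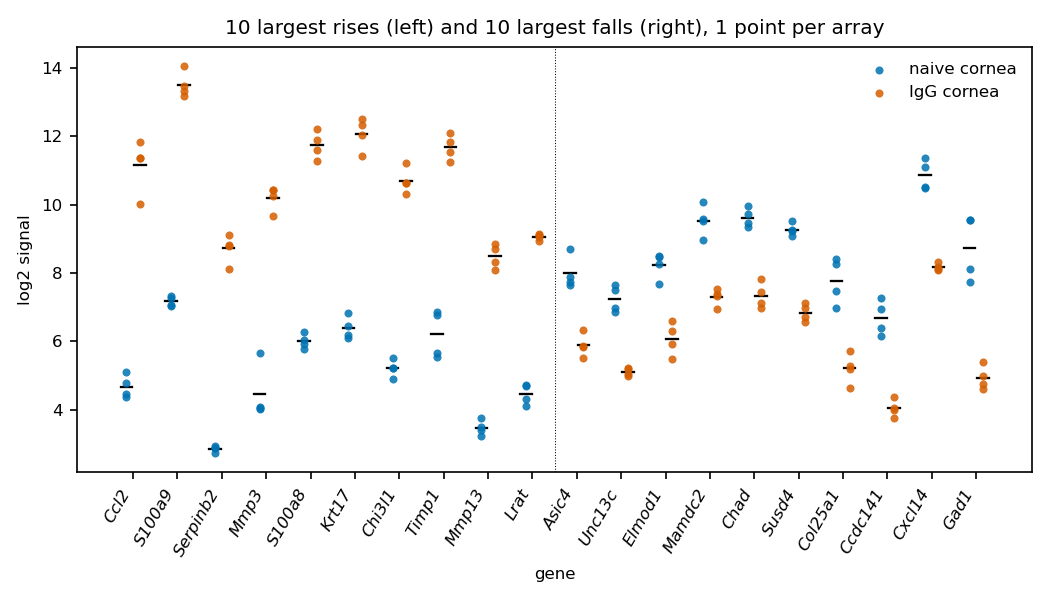
Log2 signal of the 10 genes with the largest rises and the 10 with the largest falls, with 1 point per array and a bar at the mean of the 4 arrays of a group. In all 20 genes the IgG and naïve points do not overlap, as the rule for choosing them asked.

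Upstream sequences are shown for the 6 largest rises that have an entry in the RefSeq promoter table (build GRCr8), because these are the genes with the largest differences, and AP-1 and TATA motifs are well-known elements of inducible promoters. Each sequence is the 150 bases before the annotated start, read 5′ to 3′ on the strand of the gene. Capitals mark AP-1 motifs (TGANTCA, with any base accepted at N, searched on both strands) and TATA motifs (TATAAA, on the gene's strand).
*S100a9*, chr2:178490623-178490772, minus strand: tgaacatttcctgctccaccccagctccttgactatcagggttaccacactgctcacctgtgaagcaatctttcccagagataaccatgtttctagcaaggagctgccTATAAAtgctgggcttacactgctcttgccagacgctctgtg
*Serpinb2*, chr13:24055871-24056020, plus strand: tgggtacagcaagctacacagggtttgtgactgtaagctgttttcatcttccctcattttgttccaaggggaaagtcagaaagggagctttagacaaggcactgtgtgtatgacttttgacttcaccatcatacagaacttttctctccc
*Mmp3*, chr8:12925131-12925280, plus strand: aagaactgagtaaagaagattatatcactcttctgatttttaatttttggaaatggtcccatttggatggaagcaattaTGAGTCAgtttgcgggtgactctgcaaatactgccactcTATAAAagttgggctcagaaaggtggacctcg
*Chi3l1*, chr13:48193689-48193838, plus strand: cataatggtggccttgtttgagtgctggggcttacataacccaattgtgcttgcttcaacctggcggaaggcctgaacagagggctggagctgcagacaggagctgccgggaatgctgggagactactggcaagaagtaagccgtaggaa
*Timp1*, chrX:3771123-3771272, minus strand: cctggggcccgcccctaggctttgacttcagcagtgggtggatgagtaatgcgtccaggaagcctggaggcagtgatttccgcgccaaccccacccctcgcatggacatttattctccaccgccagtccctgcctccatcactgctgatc
*Mmp13*, chr8:12782679-12782828, plus strand: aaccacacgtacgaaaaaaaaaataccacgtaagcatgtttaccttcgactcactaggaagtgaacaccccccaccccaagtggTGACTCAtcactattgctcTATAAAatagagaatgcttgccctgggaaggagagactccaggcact

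An AP-1 match stood in 2 of the 6 windows, 71 to 65 bases before the start of *Mmp3* and 66 to 60 bases before that of *Mmp13*, and each was followed by a TATA match. Of the 11733 genes on the arrays with such a window, 2.63% had an AP-1 match and 4.06% a TATA match. The shares were 4.7% and 6.7% of the 702 windows of genes that rose and 2.8% and 3.33% of the 571 windows of genes that fell. Both motifs do not overlap each other in these windows. A match describes letters only and was not tested as a binding site.

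The largest falls were smaller than the largest rises and named neuronal, stromal and chemokine genes. *Gad1*, the enzyme that makes the transmitter GABA from glutamate, read 9.54, 9.56, 8.12 and 7.75 in naïve and 5.38, 4.74, 4.99 and 4.61 in IgG corneas. The fall of 3.81 on the log2 scale (SE 0.48, 14-fold, adjusted p = 3.59e-05) was seen against both pairs of naïve corneas, although naïve 1 and 2 lay above naïve 3 and 4. A second and much dimmer probe set of *Gad1* differed by only −0.53. *Cxcl14*, a chemokine that resting epithelia make steadily, read 11.37, 11.09, 10.49 and 10.52 against 8.11, 8.08, 8.31 and 8.18 (−2.70, SE 0.24, 6.49-fold lower), and its second probe set differed by −1.08. It moved in the opposite direction to the inflammatory chemokines below. *Chad*, a leucine-rich matrix protein of cartilage, fell by 2.28 on the log2 scale (SE 0.19). *Col25a1*, a membrane collagen, had a difference of −2.57 (SE 0.48) and *Susd4*, a membrane protein with complement control domains, one of −2.43 (SE 0.18). *Asic4*, a member of the acid-sensing ion channel family, fell by 2.11 and *Unc13c*, a presynaptic protein, by 2.14. *Mamdc2*, *Ccdc141* and *Elmod1* made up the 10, with differences of −2.24, −2.64 and −2.15.

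Of 14 measured pan-leukocyte genes 11 rose and none fell, with a median difference of 1.72 against −0.01 over all genes. *Ptprc*, the common leukocyte antigen CD45, read 4.18, 4.14, 4.25 and 4.04 in naïve and 7.39, 8.22, 7.94 and 7.27 in IgG corneas (rise 3.55, SE 0.30, 11.7-fold), and a second probe set differed by 0.96. *Cd53*, a leukocyte tetraspanin, rose by 3.82 and *Fcer1g*, a signalling chain of Fc receptors, by 3.06. The mean of the whole list was 6.26 to 6.45 in naïve and 7.75 to 8.21 in IgG corneas, with no overlap. In such bulk tissue more cells of a type and more RNA per cell cannot be told apart.

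Of 8 neutrophil genes 5 rose (median 1.36), among them *Csf3r*, the receptor for the granulocyte growth factor, with 5.35, 4.85, 5.12 and 4.48 in naïve and 8.05, 8.21, 8.35 and 8.37 in IgG corneas. *Camp*, a granule protein made in the marrow before neutrophils leave it, had a difference of 0.21 (adjusted p = 0.164). Of 13 monocyte and macrophage genes 8 rose (median 1.50). *Fcgr2b*, an inhibitory Fc receptor, rose by 3.22, *Mrc1*, the mannose receptor, by 2.68, *Clec10a*, a lectin, by 2.48, and *Csf1r*, the receptor for macrophage growth factor, by 1.65. *Cd163*, a scavenger receptor of macrophages, varied widely among the IgG corneas at 4.53, 5.29, 6.67 and 6.24, all above the naïve range of 3.64 to 4.17. In the list of MHC class II and dendritic cell genes 7 of 14 rose and 1 fell (median 1.09). *Cd74*, the invariant chain, read 8.24, 7.32, 7.90 and 7.66 in naïve and 10.24, 10.87, 10.90 and 10.64 in IgG corneas, and *RT1-Da*, the rat class II alpha chain, rose by 3.21. The class II activator *Ciita* differed by 0.23 (adjusted p = 0.0896) with its brightest probe set, while another of its probe sets differed by 1.14.

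Of 18 T and NK cell genes 1 was called, *Cd8a*, with naïve signals of 4.09, 4.00, 4.24 and 4.05 and IgG signals of 4.42, 5.17, 5.99 and 5.60. Its other probe sets differed by 0.92 (adjusted p = 0.00351) and by 0.15. The defining T cell genes *Cd3d* and *Cd3e* differed by 0.44 and 0.26, below the fold limit. Of 6 B and plasma cell genes and of 9 mast cell genes limma called 0, with medians of 0.06 and 0.04 and with 0 and 3 genes at an unadjusted p under 0.05. *Ms4a1*, which encodes the B cell antigen CD20, differed by 0.00 and *Tpsab1*, a mast cell tryptase, by 0.14.

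**Figure D3:**
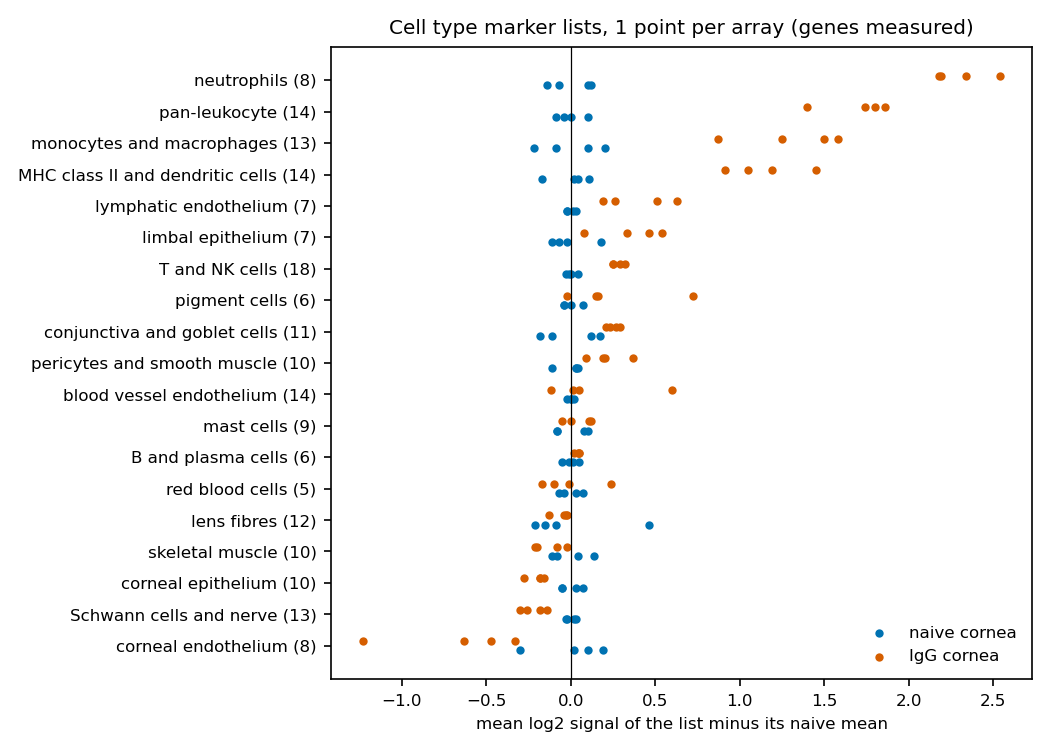
Mean log2 signal of each of 19 marker lists in each array, less the mean of the 4 naïve corneas, with the number of measured genes in parentheses. Neutrophil, pan-leukocyte, macrophage and MHC class II lists stand to the right in all 4 IgG corneas, and the corneal endothelium list stands to the left.

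Of 16 CC chemokines 5 rose and none fell (median 0.40), and of 14 CXC and CX3C chemokines 6 rose and 2 fell (median 0.68). *Ccl7*, another chemokine for monocytes, read 4.41, 4.43, 4.66 and 4.76 in naïve and 7.73, 9.12, 8.94 and 9.35 in IgG corneas (rise 4.22, 18.6-fold). *Cxcl6*, which is also known as *Cxcl5* in rat, read 4.51, 4.31, 4.89 and 4.59 against 8.42, 9.05, 8.86 and 9.05 (rise 4.27, SE 0.42, 19.3-fold). This chemokine attracts neutrophils through the receptor encoded by *Cxcr2*, which rose by 1.59. Further ligands of that receptor, *Cxcl1* and *Cxcl2*, rose by 3.40 and 2.70. *Ccl20*, which attracts dendritic cells and some lymphocytes, rose by 1.82, and IgG cornea 23 at 7.53 lay well above the 6.07 to 6.28 of the others.

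The chemokines that fell were *Cxcl14*, given above, and *Cxcl12*. *Cxcl12*, a chemokine of stromal cells, fell from 9.51, 9.43, 9.92 and 9.60 to 8.77, 8.07, 8.71 and 8.63 (−1.07, SE 0.25). However, its other probe sets differed by −0.30 and −0.29, and the mean of its probe sets was not called (−0.55, adjusted p = 0.0929). Its receptor *Cxcr4* rose by 1.34. Of 15 chemokine receptors 5 rose and 1 fell (median 0.25). *Ccr1*, a receptor of monocytes and neutrophils, rose by 2.66 and *Ccr2*, the receptor for the *Ccl2* product, by 1.05, from 3.77, 3.77, 3.59 and 3.38 to 4.58, 5.02, 4.70 and 4.40.

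In the interleukin-1 family 9 of 14 genes rose and none fell (median 0.71). *Il1b*, the ligand made by myeloid cells, read 5.56, 5.36, 4.76 and 5.61 in naïve and 8.61, 8.99, 8.80 and 9.49 in IgG corneas (rise 3.65, SE 0.31, 12.6-fold). The decoy receptor *Il1r2*, which binds the ligand without signalling, rose even more, from 5.45, 4.51, 5.66 and 5.83 to 9.15, 9.33, 9.40 and 9.70 (rise 4.03, SE 0.29, 16.3-fold). The signalling receptor *Il1r1* rose by 1.15 and *Il1rl1*, the receptor for interleukin-33, by 2.36. Dimmer probe sets differed by less, 0.33 and 0.57 for *Il1r1* and 0.16 for *Il1rl1*. *Il18*, a family member that epithelium makes at rest, differed by −0.16 (adjusted p = 0.313).

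*Il6*, a cytokine of the acute phase, read 3.59, 3.37, 3.13 and 3.95 in naïve and 6.79, 7.59, 7.61 and 7.09 in IgG corneas (rise 3.76, SE 0.70, 13.6-fold). Of the 19 genes of its family and signalling chain 6 rose (median 0.17). *Stat3*, the transcription factor downstream, rose by 1.79 (0.85 with its second probe set), and *Socs3*, the inhibitor that factor induces, by 2.63, from 6.36 to 6.48 in naïve to 8.90 to 9.42 in IgG corneas. The kinase gene *Jak1* differed by 0.19. Of 18 genes of TNF and NF-κB feedback 9 rose and none fell (median 0.68). The adhesion molecules *Icam1* and *Vcam1*, on which leukocytes roll to a halt, rose by 3.22 (SE 0.19) and 3.20 (SE 0.20), and the subunit genes *Nfkb1* and *Nfkb2* by 1.13 and 1.18. *Icam1* varied little within a group, at 6.76 to 7.24 in naïve and 10.04 to 10.33 in IgG corneas.

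Of 18 genes of microbial recognition, receptors and their signalling proteins, 8 rose, 1 fell and 9 were not called (median 0.60). *Clec7a*, the receptor for fungal glucan on myeloid cells, read 6.02, 4.88, 5.55 and 5.66 in naïve and 8.08, 8.50, 8.42 and 8.75 in IgG corneas. *Tlr4*, the receptor for bacterial endotoxin, rose by 1.30 and *Tlr2*, a receptor for bacterial lipoproteins, by 1.07. Antimicrobial genes had the highest median of the process lists, 1.52, with 9 of 15 higher and none lower. *Reg3g*, a lectin that kills bacteria, read 4.35, 4.50, 4.16 and 4.64 in naïve and 9.40, 8.36, 8.43 and 7.09 in IgG corneas (rise 3.91, SE 0.41, 15-fold). *Defb4*, a beta-defensin, read 4.53, 4.07, 4.51 and 4.20 against 9.71, 7.68, 7.29 and 7.98 (rise 3.84, SE 0.48). In both genes IgG cornea 17 was the highest. *Slpi*, an inhibitor of neutrophil elastase, rose by 1.73.

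Of 31 interferon response genes 9 rose and 1 fell (median 0.73). *Gbp2*, a guanylate-binding protein induced by interferon-gamma, read 9.09, 9.36, 8.20 and 8.65 in naïve and 13.02, 12.36, 12.76 and 12.23 in IgG corneas (rise 3.77, SE 0.35, 13.7-fold). *Gbp4*, of the same family, rose by 3.64, from naïve signals as far apart as 4.09 and 7.20. *Irf9*, a part of the factor that type I interferon activates, rose by 1.56. Genes typical of type I interferon were uneven among the IgG corneas, with IgG cornea 19 above the rest. *Isg15*, a ubiquitin-like protein, read 8.79, 11.13, 8.38 and 9.42 in IgG corneas against 7.49 to 8.10 in naïve ones, and *Rtp4* read 7.09, 9.03, 7.30 and 7.07 against 5.81 to 6.09. Without IgG cornea 19 neither was called (*Isg15* 1.06, adjusted p = 0.0592, and *Rtp4* 1.20, adjusted p = 0.0864), and the same held without naïve cornea 2 (1.53, adjusted p = 0.0561, and 1.65, adjusted p = 0.0523) and, for *Rtp4*, without naïve cornea 3 (1.62, adjusted p = 0.0517).

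Of 18 complement components 8 rose and none fell (median 0.33). *C3*, the central component, read 4.93, 5.10, 5.24 and 4.86 in naïve and 8.01, 7.09, 7.74 and 8.16 in IgG corneas (rise 2.72, SE 0.24, 6.59-fold). The classical pathway proteases *C1s* and *C1r* rose by 2.49 (SE 0.16) and 1.91 (SE 0.12), and the recognition chain *C1qa*, which macrophages make, by 2.08. Of 15 regulators and receptors 5 rose and 1 fell (median 0.26). *Clu*, an inhibitor of the terminal complex, read 7.32, 7.05, 7.71 and 7.66 against 11.45, 10.94, 11.48 and 11.29 (rise 3.86, SE 0.19, 14.5-fold), although a second and much dimmer probe set differed by only 0.39. *Cfi*, the protease that inactivates C3b, rose by 3.53, and *Serping1*, the inhibitor of the C1 proteases, by 2.62. The components that rose and these inhibitors were therefore higher in the same corneas. The regulator that fell was *Cd55*, at −1.54 and at −1.65 with its second probe set, although its IgG and naïve arrays overlapped. The regulators *Cd46* and *Cd59b* differed by −0.09 and 0.07 and were not called.

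Acute phase and iron genes were higher in 7 of 21 cases and lower in none (median 0.43). *Mt2A*, a metallothionein that binds zinc and copper, read 10.21, 9.79, 9.95 and 9.74 in naïve and 12.79, 12.55, 12.64 and 13.10 in IgG corneas (rise 2.85, SE 0.12, adjusted p = 7.86e-10). *Hmox1*, which breaks down haem, rose by 1.59. *A2m*, a plasma protease inhibitor strongly induced in rat liver, differed by 0.28 (adjusted p = 0.195).

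Matrix proteases and their inhibitors moved to both sides, with 9 of 29 higher and 3 lower (median 0.28). Besides *Mmp3* and *Mmp13*, *Mmp9*, the gelatinase of neutrophils and wound-edge epithelium, rose from 4.12, 3.83, 4.14 and 4.36 to 7.32, 6.97, 8.96 and 6.63 (3.36, SE 0.40, 10.2-fold), and by 2.01 with its second probe set. The inhibitor *Timp1* and the proteases rose in the same corneas. The membrane protease *Mmp14*, which activates others, read 11.37, 11.18, 10.60 and 10.65 in naïve and 11.35 to 11.43 in IgG corneas and was not called (0.43). With naïve 3 and 4 as the only naïve arrays it passed both limits (0.75, adjusted p = 6.60e-04).

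In the plasminogen and coagulation list 7 of 16 rose and none fell (median 0.27). *Serpine2*, an inhibitor of thrombin and plasminogen activators, rose by 3.00, from 4.53 to 4.98 in naïve to 6.88, 7.56, 8.15 and 8.38 in IgG corneas. *Tfpi2*, an inhibitor of plasmin, read 4.73, 5.94, 6.32 and 7.71 in IgG corneas and 3.42 to 3.74 in naïve ones. *Procr*, the receptor for protein C, rose by 1.97.

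Of 18 provisional matrix genes 6 rose, none fell and 12 were not called (median 0.27). *Tnc*, the wound matrix protein tenascin-C, read 3.80, 4.29, 4.14 and 4.26 in naïve and 5.64, 6.98, 7.83 and 7.52 in IgG corneas (rise 2.87, SE 0.47, 7.3-fold). *Vcan*, a large proteoglycan that binds hyaluronan, rose by 2.39. Its other probe sets differed by 1.91, 2.35 and 1.89, and a very dim one by 0.08. *Spp1*, which encodes osteopontin, rose by 1.84, and *Cd44*, the hyaluronan receptor, by 1.30. Among 27 genes of the TGF-β and CCN group 12 rose and 1 fell (median 0.41). *Tgfbi*, a matrix protein of the cornea that TGF-β induces, read 9.63, 9.51, 9.64 and 9.48 against 11.78, 11.35, 11.90 and 11.54 (rise 2.07, SE 0.15), and *Lox*, which crosslinks collagen, rose by 1.38. The call that fell was *Fst*, which binds activin, at −1.03. Its other probe set differed by −1.15.

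Collagens went the other way. Of 23 measured collagen genes 11 fell and 1 rose, with the lowest median of all process lists, −0.54. *Col8a2*, a collagen of the endothelial basement membrane, read 12.09, 12.06, 12.15 and 11.92 in naïve and 10.05, 11.06, 11.28 and 11.01 in IgG corneas (−1.21, SE 0.22, adjusted p = 7.31e-04). Its partner *Col8a1* fell by 1.44 on the log2 scale and *Col4a5*, of basement membranes, by 1.21. In these 3 genes IgG cornea 17 was the lowest. *Col1a2*, a chain of the main stromal collagen, differed by −0.45 (adjusted p = 0.0258), below the fold limit. *Col18a1*, whose product yields the inhibitor endostatin, was the collagen that rose, from 6.99 to 7.15 to 8.38 to 8.59. With naïve 3 and 4 as the only naïve arrays, 7 of the 23 were called.

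Of 15 leucine-rich proteoglycan and keratocyte genes 3 fell and 1 rose (median −0.21). *Ogn*, a small keratan sulfate proteoglycan, read 11.10, 11.41, 10.12 and 10.87 in naïve and 8.90, 9.55, 9.76 and 9.23 in IgG corneas (−1.52, with −1.01 and −0.71 for its other probe sets), and *Chst5*, a sulfotransferase, fell by 0.99 on the log2 scale. *Dcn*, the proteoglycan decorin of the stroma, differed by 0.16 (adjusted p = 0.384).

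Of 27 angiogenic factors and receptors 3 rose and 1 fell (median 0.01), a count near the 11.3% over all genes. *Vegfa*, the main vessel growth factor, read 8.06, 7.95, 7.73 and 7.88 in naïve and 9.62, 9.61, 9.61 and 9.49 in IgG corneas (rise 1.68, SE 0.22, 3.2-fold, adjusted p = 4.71e-05), and its other probe set rose by 1.55. *Angptl4*, a secreted protein that hypoxia induces, rose by 1.60. *Esm1*, a proteoglycan of sprouting endothelium, read 3.84, 3.82, 3.88 and 4.16 against 5.80, 7.76, 8.81 and 7.34 (rise 3.50, SE 0.48, 11.3-fold). It was among the DEGs that varied most between IgG corneas. *Hif1a*, the oxygen-sensing factor that is regulated mainly as protein, differed by −0.01. *Fgf1* fell by 0.77 on the log2 scale with its brightest probe set, while the mean of its probe sets did not pass the fold limit (−0.41).

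Markers of the vessel wall itself were mostly not called. Of 14 genes of blood vessel endothelium none rose and 1 fell (median 0.25), the von Willebrand factor gene *Vwf*, at 6.42 to 6.77 in naïve and 5.65 to 6.05 in IgG corneas. IgG cornea 22 stood out in this list. *Pecam1*, which encodes CD31, read 4.91, 5.10, 6.12 and 5.06 in IgG corneas and 5.10 to 5.59 in naïve ones, and *Emcn*, a marker of veins and capillaries, read 4.78, 4.42, 6.15 and 4.96 against 4.29 to 4.48. The difference of 0.67 for *Emcn* (adjusted p = 0.0627) was called without IgG cornea 19 (0.89, adjusted p = 0.0149) and was 0.31 without IgG cornea 22. The mean of the vessel list was 6.32 in IgG cornea 22 and 5.60 to 5.77 in the other IgG corneas, and *Esm1* was highest in that cornea too. Of 10 pericyte and smooth muscle genes limma called 0 (median 0.20), with 2 at an unadjusted p under 0.05. These were *Mcam* (0.50, adjusted p = 0.0258) and *Myh11* (0.45, adjusted p = 0.0343), both higher but below the fold limit. Of 7 lymphatic genes 1 rose, *Pdpn*, from 8.58 to 8.92 to 10.59 to 11.25, a gene that activated stromal and epithelial cells also use. The lymphatic genes *Lyve1* and *Prox1* differed by 0.35 and 0.28. Of 14 angiogenesis inhibitors 2 rose and 2 fell (median 0.04). *Cnmd*, a vessel inhibitor of cartilage, was among the falls (−1.58, SE 0.30). Without IgG cornea 17 or without naïve cornea 1, 2 of the 14 were called.

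Markers of the corneal epithelium were not called, while wound keratins and cornification genes rose. Of 10 epithelial markers limma called 0 (median −0.21), and 4 had an unadjusted p under 0.05. These were *Tkt* (−0.32), *Aldh3a1* (−0.27), *Pax6* (−0.44) and *Klf4* (−0.24). All were lower and passed the adjusted p limit (from 0.00438 to 0.0277 in limma), but lay below the fold limit. *Krt12*, the keratin that defines this epithelium, read 14.74, 14.79, 14.77 and 14.76 in naïve and 14.67, 14.73, 14.72 and 14.68 in IgG corneas (difference −0.06, adjusted p = 0.428). *Krt5*, of its basal cells, differed by −0.10 and *Aldh3a1*, the abundant corneal aldehyde dehydrogenase, by −0.27. Signals near the top of an array's range can hide differences. Of 16 keratins 4 rose and none fell (median 0.00), with *Krt17* and *Krt14* far ahead. *Krt14*, of basal keratinocytes, read 12.75, 12.36, 12.97 and 12.94 against 14.50, 14.33, 14.34 and 14.32 (rise 1.62, SE 0.12). The others, *Krt15* (0.86, adjusted p = 0.0287) and *Krt13* (0.72, adjusted p = 0.0413), lost their call without IgG cornea 22 (0.81 and 0.67), without IgG cornea 23 (0.76 and 0.70) or without naïve cornea 1 (0.84 and 0.53), which left 2 keratins called. *Krt15* also lost it without naïve cornea 3 (0.79), and *Krt13* without naïve cornea 2 (0.68), IgG cornea 17 (0.77) or IgG cornea 19 (0.73).

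Cornification and shedding genes had the highest share of rises of the process lists, 13 of 19 with none lower (median 0.95). These genes build the tough outer shell of skin cells, which the healthy cornea does not form. *Stfa3*, a stefin that inhibits cysteine proteases, read 6.75, 6.93, 7.67 and 7.95 in naïve and 11.81, 12.29, 12.71 and 10.77 in IgG corneas (rise 4.57, SE 0.44, 23.8-fold), while a second and very dim probe set differed by 0.24. *Dmkn*, a secreted epidermal protein, rose by 3.02, *Cnfn*, of the cornified envelope, by 2.86, and *Serpinb3*, a squamous cell serpin, by 2.59. *Sprr1a*, an envelope precursor, rose by 0.91 from an already bright 13.03 to 13.20. In the EGF family 3 of 13 rose and 2 fell (median 0.05). *Areg*, the ligand amphiregulin, rose by 1.77 and *Nrg1*, neuregulin, by 1.15, although its other probe sets differed by 0.02 to 1.78. *Egf* itself fell from 6.86 to 7.19 to 5.72 to 6.01. The receptor gene *Egfr* differed by −0.02.

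Of 22 immediate early genes 14 rose, none fell and 8 were not called (median 0.90), and naïve signals of some were uneven. *Fos*, a subunit of AP-1, read 11.67, 10.78, 8.84 and 9.49 in naïve and 12.64, 11.96, 12.17 and 13.05 in IgG corneas (rise 2.26, SE 0.58, adjusted p = 0.00831), while a second and dimmer probe set differed by −0.07. *Egr1*, a growth response factor, read 11.33, 10.18, 8.59 and 9.81 against 12.43, 11.94, 12.22 and 12.47 (rise 2.29, SE 0.48). Both genes were lower in naïve corneas 3 and 4 than in naïve corneas 1 and 2. *Myc*, with steady naïve signals of 8.36 to 8.60, rose by 1.56 (SE 0.17). *Klf4*, an epithelial factor that is bright in the cornea, differed by −0.24. Among 16 corneal transcription factors 2 rose (median 0.07). One was *Ehf*, an epithelial ETS factor, from 8.82 to 9.18 to 9.51 to 9.91. Of 25 cell junction genes 1 rose and 2 fell (median −0.06), and *Dsp*, desmoplakin, differed by −0.15.

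**Figure D4:**
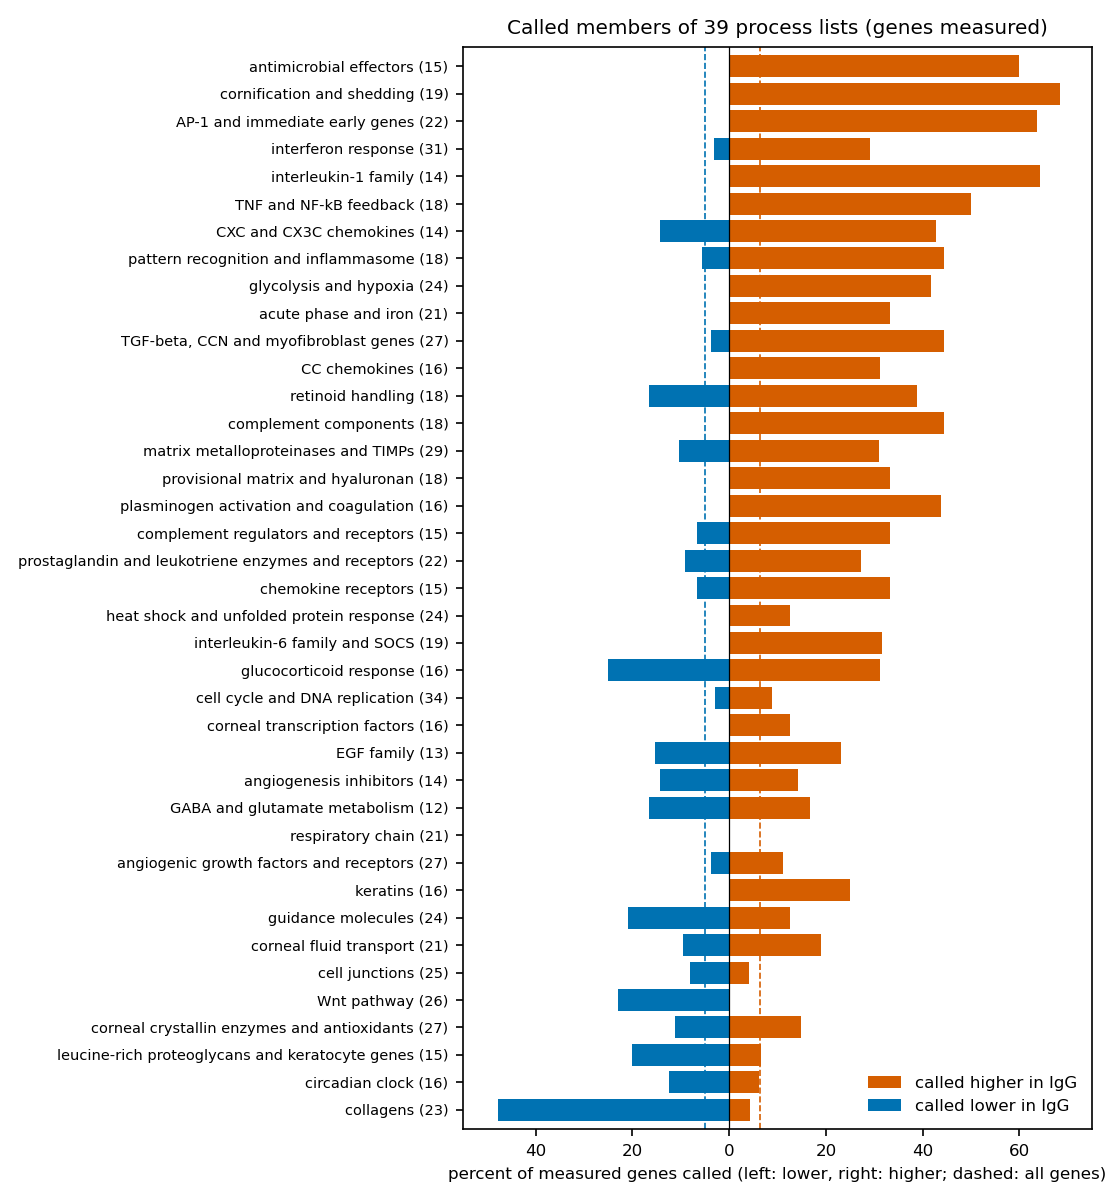
Share of the measured genes of each of 39 process lists called higher (right) and lower (left) in IgG corneas, in the order of the median difference, with the number of genes in parentheses and the shares over all 14217 genes dashed (6.32% and 5.02%). Cornification, interleukin-1, immediate early and antimicrobial lists reach furthest right, and collagens reach furthest left.

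Of 24 glycolysis and hypoxia genes 10 rose and none fell (median 0.46). *Slc16a1* and *Slc16a3*, transporters that carry lactate, rose by 1.45 (0.31 with a dim second probe set) and 1.43, and *Ndrg1*, which hypoxia and stress induce, rose from 10.97, 10.53, 10.43 and 10.23 to 12.99, 12.12, 12.39 and 11.75. Of 21 respiratory chain genes limma called 0 (median 0.01), with 6 at an unadjusted p under 0.05, and *Cox6c*, a subunit of cytochrome oxidase, differed by −0.01. Some passed the adjusted p limit in either direction but lay below the fold limit. Examples are *Sdhc* at 0.31 (adjusted p = 0.00717) and *Tfam* at −0.36 (adjusted p = 0.0021). Among 27 corneal crystallin enzymes and antioxidants 4 rose and 3 fell (median −0.19). *Sod2*, the mitochondrial superoxide dismutase, read 9.58 to 9.66 in naïve and 12.07, 11.34, 11.34 and 11.79 in IgG corneas, and *Gclc*, which starts glutathione synthesis, rose by 1.52. *Adh7*, an alcohol dehydrogenase that oxidises retinol, fell by 1.50 on the log2 scale and *Nqo1*, a quinone reductase, by 1.36.

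Of 18 retinoid genes 7 rose and 3 fell (median 0.34). *Lrat* rose, as given above, and *Crabp2*, whose product carries retinoic acid to its receptors, rose by 1.43. Enzymes that destroy retinoic acid moved to both sides. *Cyp26b1* rose from 8.67, 8.80, 7.98 and 7.98 to 9.88, 9.52, 9.78 and 10.07, whereas *Cyp26a1* fell from 7.18, 6.89, 7.75 and 6.67 to 5.37, 5.64, 5.68 and 5.23. A second probe set of *Cyp26b1* differed by 0.79. *Rarres2*, which encodes the leukocyte attractant chemerin and answers to retinoids, rose by 4.06 (SE 0.29, 16.7-fold).

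Among 22 prostaglandin and leukotriene genes 6 rose and 2 fell (median 0.25). *Ptges*, the inducible prostaglandin E synthase, read 6.97, 6.41, 7.13 and 6.61 in naïve and 8.69 to 9.01 in IgG corneas, and *Alox5ap*, the helper of leukotriene synthesis, rose by 1.92. *Ptgs2*, the inducible cyclooxygenase, read 8.27, 9.98, 9.69 and 10.15 in IgG corneas and 7.65 to 8.29 in naïve ones, so that IgG cornea 17 lay within the naïve range. *Ptgs1*, the constitutive form, rose by 1.90 and its second probe set differed by 0.98, while that of *Ptges* differed by 1.34. *Alox15*, a lipoxygenase of the healthy cornea, fell from 7.60 to 8.18 to 6.18 to 6.57.

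Of 8 markers of the corneal endothelium 3 fell, none rose and 5 were not called, with a median of −1.05. Members chosen after their values were seen show the spread of the list, with the adhesion molecule gene *Alcam* at 0.55 and the carbonic anhydrase gene *Car12* at 0.41, both below the fold limit, and the junction gene *Tjp1* at −0.06 with a second probe set at 0.98. *Slc4a11*, a transporter needed for stromal clarity, read 11.33, 11.36, 11.08 and 10.71 in naïve and 9.31, 9.86, 10.32 and 9.93 in IgG corneas (−1.26, SE 0.18, adjusted p = 1.32e-04). *Cdh2*, the cadherin of endothelial contacts, read 8.91, 8.94, 9.14 and 8.58 against 6.16, 7.65, 7.75 and 7.53 (−1.62, SE 0.30). Another of its probe sets, with a dim mean signal of 5.86, differed by 0.54 and the remaining one by −0.94. The mean of the 8 markers was 9.75 to 10.24 in naïve corneas and 8.82, 9.58, 9.72 and 9.42 in IgG corneas, lowest in IgG cornea 17. The bicarbonate cotransporter *Slc4a4* differed by −0.88 (adjusted p = 0.0535) with its brightest probe set and by 0.02 with another. The former was called without naïve cornea 4 (−1.02, adjusted p = 0.0414), without naïve cornea 3 (−1.01, adjusted p = 0.0472) or without IgG cornea 19 (−1.03, adjusted p = 0.0428), and 5 of the 8 markers were called without naïve cornea 4. Whether the corneal pieces held less endothelium was not tested. Over 21 genes of fluid transport 4 rose and 2 fell (median −0.02). *Slc4a7*, another bicarbonate cotransporter, rose by 1.90, and *Atp1b1*, a subunit of the sodium pump, fell by 0.94 on the log2 scale.

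Of 26 Wnt pathway genes 6 fell and none rose (median −0.07). *Wnt16*, a Wnt ligand, read 7.83, 7.76, 7.72 and 6.95 in naïve and 5.97, 5.61, 5.57 and 5.04 in IgG corneas (−2.02, SE 0.32). *Dkk3*, a secreted protein of the Dickkopf family, fell by 1.58 on the log2 scale and *Sfrp1*, a secreted Wnt inhibitor, by 1.00, each with its brightest probe set, whereas the mean over their probe sets did not pass the fold limit (−0.57 and −0.47). Of 24 guidance genes 3 rose and 5 fell (median −0.00). *Sema3c*, a secreted semaphorin, read 12.15, 12.33, 12.03 and 11.75 against 9.90, 10.64, 10.90 and 10.69, lowest in IgG cornea 17. *Plxnd1*, a semaphorin receptor of vessels, rose by 0.79.

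Nerve genes were mostly not called. Of 13 Schwann cell and nerve genes 2 fell and none rose (median −0.12), a share of 15.4% beside 11.3% over all genes. *Nefl*, *Nefm* and *Tubb3*, also on the list, differed by −0.19, −0.12 and 0.28 and were not called. *Gap43*, a protein of growing nerve endings, read 7.75, 7.74, 8.08 and 7.90 in naïve and 6.64, 6.56, 6.66 and 6.53 in IgG corneas (−1.27, SE 0.12, adjusted p = 3.36e-06), although a second and very dim probe set differed by −0.11. *S100b*, of Schwann cells, fell by 1.07 on the log2 scale. The myelin gene *Mbp* and the Schwann cell factor *Sox10* differed by 0.03 and 0.08. Around *Gad1*, 2 of 12 GABA and glutamate genes rose and 2 fell (median 0.02). *Slc1a1*, a glutamate transporter, rose by 1.02.

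Markers of neighbouring tissues were called at shares from 10% in muscle to 42.9% in limbus, beside 11.3% over all genes, in lists of 5 to 12 genes. Of 11 conjunctival genes 2 rose (median 0.22), and the goblet cell mucin *Muc5ac* differed by 0.27 (adjusted p = 0.0553). Of 7 limbal genes 2 rose and 1 fell, of 10 muscle genes 1 fell, of 6 pigment cell genes 1 rose, of 5 red cell genes 1 fell, and of 12 lens genes 1 rose and 1 fell. *Tyrp1*, a pigment enzyme, was highest in IgG cornea 19 at 7.88, against 6.65, 6.09 and 6.96 in the others, and its second probe set differed by 0.36. The lens crystallin genes *Cryaa* and *Cryba1* read 6.75 and 6.12 in naïve cornea 4 and 5.04 to 5.21 and 4.05 to 4.31 in the other naïve corneas.

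Of 34 proliferation genes 3 rose and 1 fell (median 0.16), a share of 11.8% that is near the 11.3% over all genes. Genes of the replicative helicase, chosen after their values were seen, were read higher below the fold limit, with differences of 0.48 for *Mcm2*, 0.48 for *Mcm3*, 0.36 for *Mcm4*, 0.49 for *Mcm5* and 0.34 for *Mcm7* (adjusted p from 0.00584 to 0.043). *Ccnd2*, cyclin D2, rose from 6.37 to 6.77 to 8.06 to 8.73 (1.85, SE 0.15), while *Ccnd1*, cyclin D1, differed by −0.58, just under the fold limit, and was called without IgG cornea 19 (−0.62), IgG cornea 23 (−0.62) or naïve cornea 4 (−0.67). Without naïve cornea 2, 2 of the 34 were called. Of 24 heat shock and unfolded protein genes 3 rose (median 0.24), among them *Hsp90ab1*, a cytosolic chaperone, by 0.79 with its brightest probe set and 0.30 with another. Of 16 genes of the glucocorticoid response, which include the receptor gene and enzymes of steroid conversion, 5 rose and 4 fell (median 0.17). *Cebpd*, a factor that inflammation induces as well, rose from 6.62, 6.59, 7.05 and 6.77 to 10.53, 10.02, 10.14 and 10.58 (3.56, SE 0.22, 11.8-fold). Another of its probe sets differed by 3.95, and a dim one by 0.17. *Fkbp5*, a cochaperone of the glucocorticoid receptor, fell from 9.15, 9.29, 9.26 and 9.36 to 7.29, 7.46, 7.45 and 8.06 (−1.70, SE 0.35), and its second probe set differed by −0.86 (adjusted p = 0.106).

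Circadian clock genes showed how different the naïve corneas were from one another. Of 16 clock genes 1 rose and 2 fell (median −0.38), but 4 genes chosen after their values were seen separated naïve corneas 1 and 2 from naïve corneas 3 and 4. *Dbp*, an output gene of the clock, read 7.43, 6.95, 10.75 and 10.73 in naïve and 9.11, 9.12, 8.78 and 8.29 in IgG corneas. *Nr1d1*, a clock repressor, read 7.86, 7.34, 10.41 and 10.40 against 9.39, 9.17, 9.05 and 8.40. *Bmal1*, the core activator, and its relative *Npas2* ran the other way, with 8.15, 8.21, 6.09 and 6.23 and with 8.13, 8.27, 6.29 and 6.23 in naïve corneas. The IgG corneas lay between both naïve pairs for *Dbp*, *Nr1d1* and *Bmal1*. None of the 4 was called, with naïve SDs of 2.06, 1.63, 1.17 and 1.12. With naïve 3 and 4 as the only naïve arrays 10 of the 16 clock genes were called, *Dbp* among them (−1.91, adjusted p = 0.00127). *Bhlhe41*, a repressor that was called over all arrays (−1.26, adjusted p = 0.0145), read 9.72, 9.29, 11.20 and 11.22 against 9.28, 9.26, 9.25 and 8.58, and lost its call without IgG cornea 23 (−1.09, adjusted p = 0.0512).

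**Figure D5:**
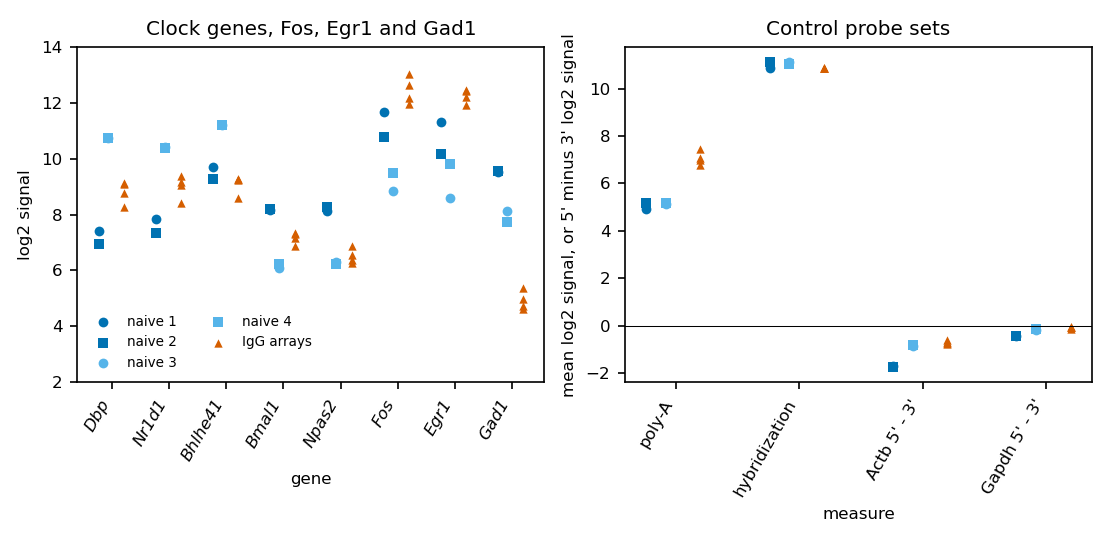
Left, log2 signal of 5 clock genes and of *Fos*, *Egr1* and *Gad1* in each naïve cornea (dark, 1 and 2; light, 3 and 4) and in the 4 IgG corneas (triangles). Right, mean log2 signal of the poly-A and hybridization controls and the 5′ minus 3′ log2 signal of *Actb* and *Gapdh* in the same arrays. Naïve corneas 1 and 2 lie together and apart from naïve corneas 3 and 4 for *Dbp*, *Bmal1* and the *Actb* measure.

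The DEGs with the widest spread among the IgG corneas were *Esm1* and 4 genes of host defence. *Csf3*, the granulocyte growth factor, read 9.71, 7.53, 6.94 and 9.01 in IgG corneas and 5.49 to 5.83 in naïve ones. *RT1-T24-4*, an MHC class I gene, read 10.04, 10.73, 7.10 and 8.81 against 5.42 to 6.41, and the rise of 3.23 became 3.92 without IgG cornea 22. *Ifgga2l1* read 7.69, 9.80, 6.98 and 5.82 against 4.46 to 4.98, with IgG cornea 19 the highest, and its rise of 2.83 became 2.09 without that cornea and 3.42 without IgG cornea 23. *LOC100909970* read 5.40, 6.94, 5.40 and 8.92 against 4.45 to 4.64, and its rise of 2.14 became 1.38 without IgG cornea 23. Rows for MHC and other multigene families can share probes with close relatives and are uncertain to that extent.

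The other sutured groups show which of these differences were also read under a drug. No gene of the 14217 differed between anti-*Vegf* and IgG corneas at an adjusted p under 0.05 in limma (0%, with 942 genes at an unadjusted p under 0.05), whereas 1503 (10.6%) differed between dexamethasone and IgG corneas. The 282 named genes were those named by rule and others, among them the 4 clock genes, added after their values were seen. Of these, 48 differed between dexamethasone and IgG corneas in limma. Between anti-*Vegf* and IgG corneas 0 differed, and 30 had an unadjusted p under 0.05 in limma. *Ccl7*, *Il1b*, *Ptprc* and *Vegfa* were read at means of 8.50, 8.77, 7.63 and 9.82 under dexamethasone and did not pass that test (adjusted p = 0.623, 0.738, 0.909 and 0.544). *Reg3g* and *Socs3* were lower under dexamethasone, at 5.70 and 7.81, and *C3* and *Mt2A* were higher, at 9.42 and 13.61. *Fkbp5* stood at 9.24 under dexamethasone, and its naïve mean was 9.27. Control signals divided the arrays along the same line as these counts. Poly-A control means were 7.08 (IgG) and 6.88 (anti-*Vegf*), but 5.17 (dexamethasone) and 5.10 (naïve). The 5′ minus 3′ means of *Gapdh* were −0.08 (IgG) and −0.11 (anti-*Vegf*), but −0.39 (dexamethasone) and −0.30 (naïve). Drug and control signal therefore changed together, and the part of the control differences in the counts for either drug was not tested.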

How the data were processed

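RNA of 16 rat corneas was hybridised to Affymetrix 3′ arrays, 1 array per cornea. The deposited values are log2 signals that the authors made with robust multi-array averaging in Expression Console, so background correction and quantile normalisation over the arrays were already applied, and array medians lay between 6.551 and 6.618. Each of 31042 probe sets, after 57 controls were set aside, was fitted with limma 3.58.1 in R 4.3.3 with a mean per group over all 16 arrays (12 residual degrees of freedom), and p-values were adjusted by Benjamini-Hochberg over all of them. The fold limit of 1.5 and the adjusted p limit of 0.05 follow the methods of the study, which do not name the test. Platform annotation gave 1 gene symbol to 20826 probe sets, several to 436 and none to 9780. A gene was read from its brightest probe set, and 4525 of 14217 genes had more than 1. Of 555 DEGs with a second probe set, it differed in the same direction in 480. It was itself called in that direction in 211 (38%) and in the opposite direction in 2. The files give no spot intensities, so depth and detection are unknown, and 4 arrays per group limit the precision. Controls were compared by exact permutation tests. The fit was tested on simulated data.

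Members and gene lists (58 lists, 929 genes measured) were chosen with earlier results of these data known. The genes named are the 10 largest rises and falls without overlap, the strongest called members of each list, those against its majority and its brightest member, the first 3 markers of each cell type, and the 5 DEGs with the largest SD in each group. Further genes were added after their values were seen. Figures were drawn with matplotlib 3.10.9 in Python 3.11.15.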

Additional observations from a re-analysis of the deposited data

Results flagged for a closer look

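In 33 of 394 groups of 4 arrays tested, 1 array lay further from the others than Dixon's critical value allows, and chance flags about 1 group in 20. The groups are not independent, since the same 8 arrays were used for each gene. Each value below is the log2 signal of the array that stood apart, followed by the range of the other 3 arrays of its group.

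IgG cornea 17 was low for *Cdh2* (6.16, others 7.53 to 7.75), *Slc4a4* (7.67, others 8.87 to 9.07), *Mrc1* (6.94, others 8.11 to 8.26) and *Fcer1g* (9.24, others 9.85 to 9.94), low for *Mcm5* (8.13, others 8.44 to 8.50) and high for *Krt14* (14.50, others 14.32 to 14.34). *Cdh2* and *Slc4a4* are endothelial markers, and *Mrc1* and *Fcer1g* are genes of macrophages and other leukocytes. IgG cornea 19 was high for *Rtp4* (9.03, others 7.07 to 7.30). IgG cornea 22 was high for *Pecam1* (6.12, others 4.91 to 5.10), *Prox1* (5.79, others 5.52 to 5.56) and *Sox10* (6.54, others 6.31 to 6.34). IgG cornea 23 was high for *Ccl20* (7.53, others 6.07 to 6.28), *Fst* (9.58, others 8.80 to 8.92), *Alcam* (10.88, others 10.51 to 10.54) and *Socs3* (9.42, others 8.90 to 8.98). The same cornea was low for *Bhlhe41* (8.58, others 9.25 to 9.28), *Egf* (5.72, others 5.97 to 6.01), *Hif1a* (11.89, others 12.08 to 12.11) and *Vegfa* (9.49, others 9.61 to 9.62).

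Naïve cornea 1 was low for *Stat3* (8.41, others 9.64 to 9.80), *Tlr2* (6.52, others 7.32 to 7.41) and the poly-A controls (4.93, others 5.13 to 5.16) and high for *C1s* (9.27, others 8.66 to 8.76). Naïve cornea 2 was high for *Pecam1* (5.59, others 5.10 to 5.15) and *Vwf* (6.77, others 6.42 to 6.43). Naïve cornea 3 was high for *Mmp3* (5.66, others 4.01 to 4.09) and low for *Ccr1* (4.66, others 4.87 to 4.90). Naïve cornea 4 was high for the lens genes *Cryaa* (6.75, others 5.04 to 5.21) and *Cryba1* (6.12, others 4.05 to 4.31), for *Cnfn* (7.99, others 7.34 to 7.45) and for *Esm1* (4.16, others 3.82 to 3.88). It was low for *Cd53* (4.86, others 5.34 to 5.42), *Dkk3* (10.94, others 11.27 to 11.33) and *Wnt16* (6.95, others 7.72 to 7.83).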

How the results depend on the processing

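Of 205 called genes among the 282 named, 151 kept their call under all 19 alternatives and 54 lost it under at least 1. Centring on 6 reference genes gave 2433 DEGs (581 higher, 1852 lower), no fold limit 4145 (1906 higher, 2239 lower) and a fold limit of 2 gave 642 (453 higher, 189 lower); the fold limits change the count by construction, and the cause under the reference genes was not tested. Leaving out 1 array gave 1533 (without naïve 1) to 1754 DEGs (without naïve 4). With naïve 3 and 4 as the only naïve arrays, chosen after seeing the data, *Nr1d1* went from 0.00 to −1.40 (adjusted p = 0.00806 from limma), and *Col8a1* (−1.14), *S100b* (−0.94), *LOC100909970* (2.09), *Isg15* (1.63), *Rtp4* (1.71), *Krt15* (0.87) and *Krt13* (0.38) were among the genes that lost their calls; the cause was not tested.

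Over leave-one-out fits the hybridization controls differed by −0.22 to −0.14 (−0.17 with all arrays, exact permutation test p = 0.057, and −0.22, p = 0.029 without naïve 1), the *Actb* 5′ minus 3′ signal by 0.42 to 0.73 and that of *Gapdh* by 0.19 to 0.28. Without 1 IgG array the p for the last 2 lay at 0.14 to 0.17 and 0.086 to 0.11 in the same exact test. The range of the response over the naïve arrays, 0.138, was 0.0673 over genes with at least 4-fold differences. No paired analysis was possible because the replicate numbers in the labels of IgG and naïve corneas share no number.

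Among gene groups, reference-gene centring called 8 of 16 clock genes against 3, 2 of 16 keratins against 4, 5 of 8 endothelial markers against 3, 2 of 21 respiratory chain genes against 0 and 1 of 10 epithelial markers against 0. With naïve 3 and 4 as the only naïve arrays, GABA and glutamate genes went from 4 calls to 2, cell cycle genes from 4 to 2 and heat shock genes from 3 to 1. With probe sets averaged per gene, Wnt genes went from 6 to 2, guidance genes from 8 to 5 and angiogenesis inhibitors from 4 to 2, and the filter on low signal left 3 of 5 CC chemokine calls. Leaving out single arrays moved the counts for T and NK cells, blood vessels, lymphatics, pericytes, mast cells, pigment cells, conjunctiva, lens and corneal transcription factors, each of at most 2 genes, by 1 gene. The cause of these shifts was not tested.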
